A study of Mus musculus with 35 samples.

Results

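The 9 chemoattractant receptors described here were followed over the 10 groups of mouse bone marrow libraries of this series: the formyl peptide receptors Fpr1 and Fpr2, the complement receptors C5ar1 and C3ar1, and the chemokine receptors Cxcr2, Cxcr4, Ccr1, Ccr2 and Cx3cr1. Each was taken by the Entrez identifier of its mouse gene, and all 9 were found among the 24462 features of the deposited table, 24454 of which are genes. All 9 passed the filter on low values, which kept 12687 features. The RNA came from C57BL/6 bone marrow cells of transplanted mice, sorted by GFP and CD45.2, in which 1 of 3 leukemia fusion genes (NUP98-DDX10, NUP98-JARID1A or NUP98-NSD1) could be regulated by doxycycline. For each fusion there were 4 untreated libraries (1 titled day 3 and 3 titled day 5), 3 libraries from mice given doxycycline at 4 mg/ml for 3 days and 3 from mice given it for 5 days. A further 3 untreated libraries are titled as controls, yet their genotype labels name NUP98/NSD1, NUP98/JARID1A and, in replicates 1, 2 and 3 in turn, NUP98/DDX40, NUP98/DDX41 and NUP98/DDX42, so what they carry cannot be told from the labels. Together these are 33 RNA libraries among 35 samples, and the 2 chromatin immunoprecipitation samples were not analysed here. The labels number neither animals nor primary leukemias, so the p-values measure the spread between these libraries, which may be technical. They do not name the promoter that drives the fusions, and no mouse age is used here.

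All 9 proteins span the membrane with bundled helices and signal through G proteins. Binding of a chemoattractant makes a leukocyte crawl towards the source, and arrestins and receptor kinases then silence the receptor. FPR1 and FPR2 sense formylated peptides shed by bacteria and mitochondria, and C5AR1 and C3AR1 sense the complement fragments C5a and C3a. CXCR2 draws neutrophils out of the marrow, whereas CXCR4 holds progenitors and neutrophils there by binding CXCL12. CCR2 carries inflammatory monocytes from marrow to blood, CX3CR1 binds fractalkine and marks patrolling monocytes and many tissue macrophages, and CCR1 binds CCL3, CCL5 and related ligands on monocytes and neutrophils. Acute myeloid leukemia is marked by an arrest of myeloid maturation, and the doxycycline groups measure what the cells express after the drug is given to lower the fusion. Only fusion models were given doxycycline and the controls were untreated. Effects of the drug itself and of losing the fusion therefore cannot be told apart.

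On GRCm38.p6, the RefSeq assembly of the build the submitters name, Fpr1 (Entrez 14293) lies on the minus strand at chr17:17876471-17883939 and Fpr2 (Entrez 14289) on the plus strand at chr17:17887824-17893952. The pair stands head to head with starts 3885 bases apart. C5ar1 (Entrez 12273) lies at chr7:16246743-16259540, C3ar1 (Entrez 12267) at chr6:122847140-122856157, Cxcr2 (Entrez 12765) at chr1:74153994-74161246 and Cxcr4 (Entrez 12767) at chr1:128588199-128592299. Chromosome 9 holds the other three, Ccr1 (Entrez 12768) at chr9:123962126-123968692, Ccr2 (Entrez 12772) at chr9:124101918-124109140 and Cx3cr1 (Entrez 13051) at chr9:120048683-120068296. The coding sequence of 7 of the receptors sits in 1 exon, and that of C5ar1 and Cxcr4 in 2.

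The start regions below are those of Fpr1 and Fpr2, which share an intergenic stretch, of C3ar1 and Cx3cr1, which moved furthest in NUP98-JARID1A, and of Cxcr2, which passed the test at no day. Each runs from 150 bases before to 30 bases after the RefSeq start, 5′ to 3′ on the strand of the gene. Capitals mark GAGGAA, the core that ETS factors such as PU.1 bind, here read as TTCCTC because each printed match lies on the opposite strand.

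Fpr1, chr17:17883910-17884089, minus strand: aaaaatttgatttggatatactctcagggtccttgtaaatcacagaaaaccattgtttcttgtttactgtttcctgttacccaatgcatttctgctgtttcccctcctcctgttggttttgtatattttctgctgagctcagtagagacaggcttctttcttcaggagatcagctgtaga

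Fpr2, chr17:17887674-17887853, plus strand: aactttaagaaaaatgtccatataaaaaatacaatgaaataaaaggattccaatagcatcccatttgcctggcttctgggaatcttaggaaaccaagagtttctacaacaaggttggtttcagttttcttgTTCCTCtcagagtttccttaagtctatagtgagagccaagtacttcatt

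C3ar1, chr6:122856128-122856307, minus strand: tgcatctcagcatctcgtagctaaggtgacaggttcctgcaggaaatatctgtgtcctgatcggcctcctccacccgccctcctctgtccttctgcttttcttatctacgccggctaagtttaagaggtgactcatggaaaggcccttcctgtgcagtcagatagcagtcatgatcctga

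Cxcr2, chr1:74153844-74154023, plus strand: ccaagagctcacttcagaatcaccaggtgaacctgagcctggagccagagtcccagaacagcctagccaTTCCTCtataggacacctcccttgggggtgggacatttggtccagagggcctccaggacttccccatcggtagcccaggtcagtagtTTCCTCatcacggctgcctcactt

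Cx3cr1, chr9:120068267-120068446, minus strand: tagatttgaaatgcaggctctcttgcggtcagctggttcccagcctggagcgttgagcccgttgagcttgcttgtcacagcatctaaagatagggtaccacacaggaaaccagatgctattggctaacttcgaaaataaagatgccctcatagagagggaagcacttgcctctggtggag

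Both strands were searched in the RefSeq windows of 250 bases before to 50 bases after each start. GAGGAA was found in 3 of the 9 receptor windows, beginning at position -19 of Fpr2, at -81 and 7 of Cxcr2 and, on the strand of the gene, at -129 of Ccr1. It was found in 28.3% of all 32851 windows of that length. TTGCNNAA, part of the C/EBP motif, was in 0 of the 9 windows and in 10.8% of all windows. No match says only that these letters are not in these windows.

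The libraries held between 12043487 and 28903870 reads in genes, and the receptors between 15 and 20416 reads per library. Fusion transcripts ran from 3042 to 58498 normalized counts (the unit of all levels here, reads after scaling each library by its size factor) in the untreated fusion groups and reached at most 100.3 in any doxycycline library. The eGFP transcript, from 7445 to 17735 normalized counts untreated, was at most 400.4 in the doxycycline libraries, although all cells are labelled as sorted by GFP. In the controls the NUP98-DDX10 and NUP98-NSD1 transcripts were at 0 (a count of 0 allows up to 3 reads per library), NUP98-JARID1A at 2.52 to 72 and eGFP at 13.9 to 210.3. Control replicate 3 stood apart from the other controls: its neutrophil markers summed to 278306 normalized counts against 3160759 and 3456018, its B cell markers to 42515 against 9887 and 10538. Values that involve the controls are therefore given with and without that library. The controls also set part of the spread that all groups share in the model, so day 3 and day 5 calls that differ in a fit of the 30 fusion libraries, added after seeing the data, are given beside each receptor. In bulk RNA, fewer cells of a type and less RNA per cell cannot be told apart. Reads shared between gene copies make some values uncertain: 31.5% of the 50-base windows of Fpr2 exons also occur in other genes. These are 3 genes, Fpr1 and Fpr3 among them, and Fpr2 overlaps Fpr3 on the same strand. Only 1 of the 1275 windows of Fpr1 is shared, with Fpr2. Shares for the other receptors were at most 4.01%, and the GENCODE span of Cx3cr1, longer than the RefSeq one given above, overlaps 9 other genes, 6 of them on the opposite strand, with no statement of whether counting used strand.

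After 5 days of doxycycline most of these receptors were higher in 2 of the 3 models. At that time 6 of 9 receptors rose and none fell in NUP98-JARID1A, where 41.3% of all features tested changed. In NUP98-NSD1, 6 rose and Cxcr4 fell, against 25.4% of features changed. In NUP98-DDX10, Fpr2 and C3ar1 rose and no receptor fell, against 15.1% of features. With any 1 compared library left out, the calls in either direction numbered 5 in NUP98-JARID1A, 5 to 6 in NUP98-NSD1 and 2 in NUP98-DDX10. The median log2 fold change of the 9 receptors at day 5 was 1.81 in NUP98-JARID1A, 1.49 in NUP98-NSD1 and 0.47 in NUP98-DDX10. Over all features, medians of the doxycycline comparisons lay between -0.02 and 0.02. All these calls are limma tests on log2(normalized count + 1) with a Benjamini-Hochberg adjusted p below 0.05. Fold changes are on that scale and carry their standard error behind the ± sign, and the 3 models have separate untreated groups.

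At day 3 the picture was smaller. C3ar1 and Cx3cr1 rose in NUP98-JARID1A, where 15.7% of features changed. By limma 0 receptors changed in NUP98-DDX10 (1 at an unadjusted p below 0.05, 0 by edgeR and 0 by DESeq2), where 1.10% of features changed. By limma 0 also changed in NUP98-NSD1 (4 at an unadjusted p below 0.05, 1 by edgeR and 2 by DESeq2), against 9.14% of features. From day 3 to day 5, C3ar1, Ccr2 and Cx3cr1 rose and Cxcr4 fell in NUP98-JARID1A (19.9% of features changed), and these 4 also passed in NUP98-NSD1, in the same directions (10.6% of features). In NUP98-DDX10 limma called 0 receptors between the days (5 at an unadjusted p below 0.05, 1 by edgeR and 1 by DESeq2), with 0.930% of features called. Leaving the controls out of the fit raised the day 3 counts to 1, 4 and 3 receptors and the day 5 counts to 5, 8 and 9 in NUP98-DDX10, NUP98-JARID1A and NUP98-NSD1. The day 5 counts include falls in that fit, of Ccr2 in NUP98-DDX10 and of Cxcr4 in the other models. Between the days that fit called 4, 7 and 7 receptors, where it called 4.30%, 29.0% and 17.7% of features. In it the shares of all features called also went up, to 3.27%, 22.7% and 16.3% at day 3 and to 23.0%, 47.7% and 33% at day 5.

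**Figure D1:**
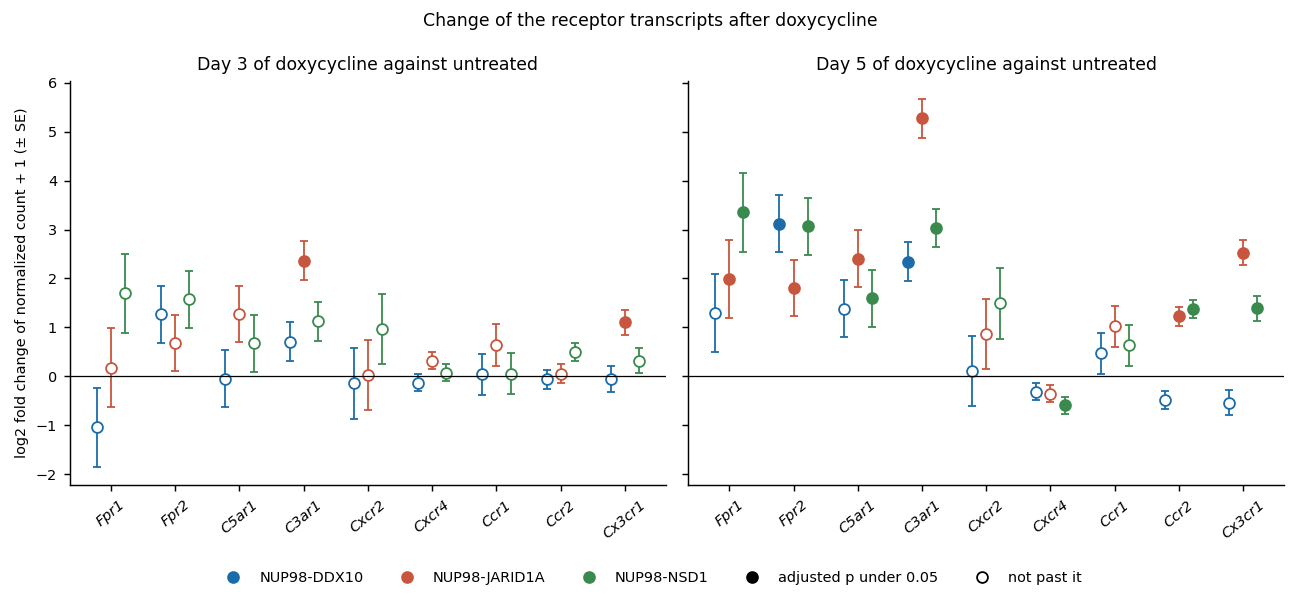
Log2 fold change of each receptor at day 3 and day 5 against the untreated libraries of the same fusion, with bars of 1 standard error from limma. C3ar1 reached 5.27 in NUP98-JARID1A at day 5, and Ccr2 and Cx3cr1 at day 5 were below 0 in NUP98-DDX10 but above 0 in the other fusions.

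Of the formyl peptide receptors, Fpr2 rose at day 5 in all 3 models and Fpr1 in 2. Fpr1, the high-affinity receptor for formylated peptides, was at 59.2, 88.4, 52.4 and 60.6 normalized counts in the 4 untreated NUP98-DDX10 libraries, at 32.4, 16.99 and 51.00 at day 3 and at 103, 197 and 194 at day 5. In NUP98-JARID1A, Fpr1 went from 690.5, 587, 701 and 474 untreated to 446, 911 and 787 at day 3 and 1797, 2338 and 3328 at day 5. In NUP98-NSD1, Fpr1 went from 90.7, 21.6, 59.8 and 15.03 to 98.7, 76.2 and 237 and then 225, 857 and 294. In all 3 models every day 5 library was above every untreated one, while at day 3 the NUP98-DDX10 libraries were all below their untreated ones and those of the other models overlapped theirs. Fpr1 rose at day 5 by 3.35 ± 0.80 in NUP98-NSD1 (limma adjusted p = 0.00253) and by 1.99 ± 0.80 in NUP98-JARID1A (adjusted p = 0.0485). The call in NUP98-JARID1A was lost on leaving out any 1 of the 7 libraries (adjusted p 0.0545 to 0.152) and with the replicate number as a block (adjusted p = 0.1), and was 0.00267 without the controls. In NUP98-DDX10 the day 5 difference of 1.29 ± 0.80 did not pass (adjusted p = 0.298). At day 3, Fpr1 in NUP98-NSD1 was at 1.70 ± 0.80 (adjusted p = 0.202, or 0.0254 without the controls). By group mean Fpr1 was lowest in NUP98-DDX10 day 3 at 33.5 ± 17.03 (SD, n = 3), followed by untreated NUP98-NSD1, untreated NUP98-DDX10, NUP98-NSD1 day 3, NUP98-DDX10 day 5, NUP98-NSD1 day 5, untreated NUP98-JARID1A, NUP98-JARID1A day 3 and NUP98-JARID1A day 5, and highest in the controls at 4488 ± 3752 (SD, n = 3). Neighbours in that Fpr1 order overlapped in range, except that NUP98-NSD1 day 5 and NUP98-JARID1A day 5 lay clear above the group before them.

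Fpr2, a broader receptor that also binds serum amyloid A, annexin A1 and cathelicidin peptides, moved more evenly. Untreated NUP98-DDX10 libraries held 80.7, 164, 88.3 and 174 normalized counts of Fpr2, day 3 libraries 350.2, 172 and 399.7 and day 5 libraries 876, 982 and 1340.2. NUP98-JARID1A had 823, 832, 665 and 635, then 871, 1425 and 1327, then 3202, 2185 and 2406. NUP98-NSD1 had 168, 63.8, 96.5 and 107, then 329, 239 and 369.7, then 1477, 742 and 589. The day 5 libraries of each model lay clear above its untreated ones, and those of NUP98-JARID1A were the highest. Fpr2 rose at day 5 by 3.12 ± 0.58 in NUP98-DDX10 (limma adjusted p = 0.000455), by 3.06 ± 0.58 in NUP98-NSD1 (0.000208) and by 1.80 ± 0.58 in NUP98-JARID1A (0.0131). An F-test of the difference in this effect between fusions did not pass (adjusted p = 0.346, or 0.0494 without the controls). Without the controls, Fpr2 also passed at day 3 in NUP98-DDX10 (1.27, adjusted p = 0.0404) and in NUP98-NSD1 (1.57, adjusted p = 0.00238). By group mean Fpr2 was lowest in untreated NUP98-NSD1 at 109 ± 43.4 (SD, n = 4), followed by untreated NUP98-DDX10, NUP98-DDX10 day 3, NUP98-NSD1 day 3, untreated NUP98-JARID1A, NUP98-NSD1 day 5, NUP98-DDX10 day 5, NUP98-JARID1A day 3 and NUP98-JARID1A day 5, and highest in the controls at 9618 ± 7651 (SD, n = 3). Neighbours in that Fpr2 order overlapped in range, except that untreated NUP98-JARID1A and NUP98-JARID1A day 5 lay clear above the group before them.

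**Figure D2:**
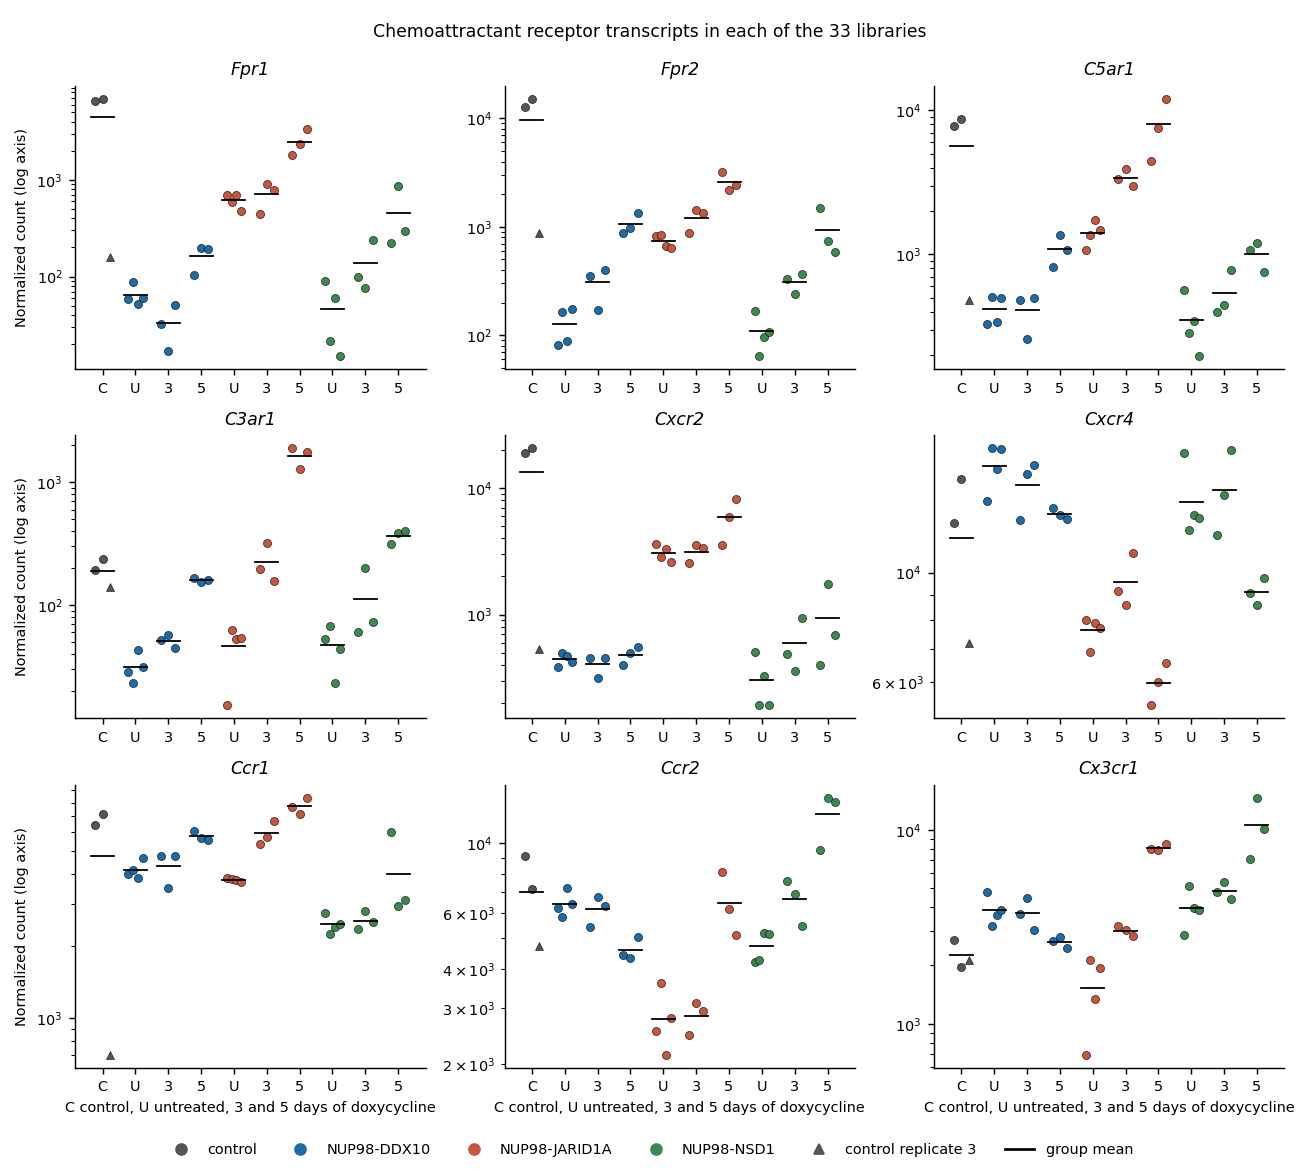
Normalized counts (log axis) of the 9 receptors in all 33 libraries, 1 point per library, by group. C3ar1 in NUP98-JARID1A goes from at most 62.3 untreated to at least 1277 at day 5, and 1 control point lies well below the other controls for Fpr1, Fpr2, C5ar1, Cxcr2 and Ccr1.

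Of the complement receptors, C3ar1 rose at day 5 in every fusion, as Fpr2 did, and its rise in NUP98-JARID1A was the largest of the 9 receptors in any doxycycline comparison. C5ar1, the receptor for the strong neutrophil attractant C5a, was at 329.8, 509, 339.8 and 496 normalized counts in untreated NUP98-DDX10 libraries, 481, 260.2 and 499.6 at day 3 and 823, 1373 and 1082 at day 5. In NUP98-JARID1A it was at 1082, 1363, 1745 and 1475 untreated, 3309, 3919 and 2969 at day 3 and 4463, 7560.3 and 11937 at day 5. In NUP98-NSD1 C5ar1 was at 569.6, 286, 348 and 197, 398, 448 and 782 and 1069.9, 1196 and 752. NUP98-JARID1A cells thus held more C5ar1 than either other fusion group of the same day, and every day 5 library exceeded every untreated library of its model. C5ar1 rose at day 5 by 2.40 ± 0.58 in NUP98-JARID1A (limma adjusted p = 0.00149) and by 1.60 ± 0.58 in NUP98-NSD1 (0.043), the second call being lost on leaving out any 1 library except the untreated one titled day 3 (adjusted p 0.0297 to 0.138). In NUP98-DDX10 the difference of 1.38 ± 0.58 did not pass (adjusted p = 0.111) and did without the controls (0.00382), as did the day 3 difference of 1.27 in NUP98-JARID1A (0.147 with and 0.00682 without them). By group mean C5ar1 was lowest in untreated NUP98-NSD1 at 350.3 ± 159 (SD, n = 4), followed by NUP98-DDX10 day 3, untreated NUP98-DDX10, NUP98-NSD1 day 3, NUP98-NSD1 day 5, NUP98-DDX10 day 5, untreated NUP98-JARID1A, NUP98-JARID1A day 3 and the controls, and highest in NUP98-JARID1A day 5 at 7986 ± 3755 (SD, n = 3). Neighbours in that C5ar1 order overlapped in range, except that NUP98-JARID1A day 3 lay clear above the group before it.

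C3ar1, the receptor for C3a on monocytes, macrophages and granulocytes, had few reads in every untreated leukemia library. It was at 28.6, 23.3, 42.7 and 31.2 normalized counts in untreated NUP98-DDX10 libraries, 51.5, 57.4 and 44.8 at day 3 and 166, 154 and 161 at day 5. NUP98-JARID1A libraries held 15.2, 62.3, 53.2 and 54.2 untreated, 197, 317 and 156 at day 3 and 1892, 1277 and 1751 at day 5. NUP98-NSD1 libraries held 53.03, 67.6, 23.2 and 43.4, 60.5, 202 and 73.04 and 316, 384 and 399. The untreated ranges of the 3 models overlapped, and by day 5 they no longer did. C3ar1 rose at day 5 by 2.35 ± 0.40 in NUP98-DDX10 (limma adjusted p = 0.000175), 5.27 ± 0.40 in NUP98-JARID1A (4.86e-11) and 3.03 ± 0.40 in NUP98-NSD1 (1.34e-06). In NUP98-JARID1A the rise had begun by day 3 (2.36 ± 0.40, adjusted p = 0.000119) and went on to day 5 (2.91 ± 0.42 over day 3, adjusted p = 2.46e-05), and in NUP98-NSD1 it was also higher at day 5 than at day 3 (1.91 ± 0.42, adjusted p = 0.00426). The size of the day 5 rise differed between fusions (F-test, adjusted p = 0.000794). By group mean C3ar1 was lowest in untreated NUP98-DDX10 at 31.4 ± 8.21 (SD, n = 4), followed by untreated NUP98-JARID1A, untreated NUP98-NSD1, NUP98-DDX10 day 3, NUP98-NSD1 day 3, NUP98-DDX10 day 5, the controls, NUP98-JARID1A day 3 and NUP98-NSD1 day 5, and highest in NUP98-JARID1A day 5 at 1640.0 ± 322 (SD, n = 3). Neighbours in that C3ar1 order overlapped in range, except that NUP98-NSD1 day 3 and NUP98-JARID1A day 5 lay clear above the group before them.

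Cxcr2, which binds the neutrophil attractants of the CXCL1 and CXCL2 kind, was at 388, 499, 469.8 and 425 normalized counts in untreated NUP98-DDX10 libraries, 455, 313 and 452 at day 3 and 396, 494 and 557 at day 5. NUP98-JARID1A libraries held 3581, 2859.9, 3289 and 2604 untreated, 2569, 3535 and 3338 at day 3 and 3553, 5951 and 8175 at day 5. NUP98-NSD1 libraries held 505, 191, 325 and 192, 486, 361 and 942 and 400.4, 1755 and 689.7. In each model the day 5 libraries overlapped the untreated ones, and all NUP98-JARID1A libraries were above all libraries of the other 2 fusions. The day 5 differences were 0.11 ± 0.72, 0.86 ± 0.72 and 1.49 ± 0.72 in NUP98-DDX10, NUP98-JARID1A and NUP98-NSD1 (limma adjusted p = 0.954, 0.358 and 0.136). Without the controls the NUP98-NSD1 value passed (adjusted p = 0.00393). By group mean Cxcr2 was lowest in untreated NUP98-NSD1 at 304 ± 149 (SD, n = 4), followed by NUP98-DDX10 day 3, untreated NUP98-DDX10, NUP98-DDX10 day 5, NUP98-NSD1 day 3, NUP98-NSD1 day 5, untreated NUP98-JARID1A, NUP98-JARID1A day 3 and NUP98-JARID1A day 5, and highest in the controls at 13299 ± 11091 (SD, n = 3). Neighbours in that Cxcr2 order overlapped in range, except that untreated NUP98-JARID1A and NUP98-JARID1A day 5 lay clear above the group before them.

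Cxcr4, the marrow-retention receptor, fell on doxycycline, and by limma over all 33 libraries no other receptor of the 9 did. In NUP98-DDX10 it was at 13949, 17870.5, 16236 and 17841 normalized counts untreated, 12814, 15883 and 16540.3 at day 3 and 13533, 13099 and 12849 at day 5. In NUP98-JARID1A it was at 8007, 6907, 7882 and 7725, then 9156, 8582 and 10941, then 5373, 6003 and 6549. In NUP98-NSD1 it was at 17462, 12173, 13100.4 and 12914, then 11933, 14387 and 17772, then 9096, 8593 and 9756. All day 5 libraries of each model were below all its untreated ones, and the NUP98-JARID1A day 3 libraries were all above theirs. The fall at day 5 passed in NUP98-NSD1 (-0.59 ± 0.18, limma adjusted p = 0.0129), with the call lost without the untreated library titled day 3 or without day 5 replicate 2. In NUP98-DDX10 (-0.32 ± 0.18, adjusted p = 0.235) and NUP98-JARID1A (-0.36 ± 0.18, adjusted p = 0.108, or 0.0278 without the controls) it did not. From day 3 to day 5, Cxcr4 fell by 0.67 in NUP98-JARID1A (adjusted p = 0.0113, a call lost without day 3 replicate 3) and by 0.67 in NUP98-NSD1 (adjusted p = 0.0205, lost without day 3 replicate 2 or 3 or day 5 replicate 2). By group mean Cxcr4 was lowest in NUP98-JARID1A day 5 at 5975 ± 588 (SD, n = 3), followed by untreated NUP98-JARID1A, NUP98-NSD1 day 5, NUP98-JARID1A day 3, the controls, NUP98-DDX10 day 5, untreated NUP98-NSD1, NUP98-NSD1 day 3 and NUP98-DDX10 day 3, and highest in untreated NUP98-DDX10 at 16474 ± 1849 (SD, n = 4). Neighbours in that Cxcr4 order overlapped in range, except that untreated NUP98-JARID1A and NUP98-NSD1 day 5 lay clear above the group before them.

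Among the CC receptors, Ccr1 and Ccr2 did not move alike. Ccr1, found on monocytes and neutrophils, was at 4001, 4161, 3875 and 4669.6 normalized counts in untreated NUP98-DDX10 libraries, 4774, 3494 and 4782 at day 3 and 6095, 5669.8 and 5580.0 at day 5. NUP98-JARID1A libraries held 3876, 3833, 3791 and 3707 untreated, 5392, 5756 and 6702 at day 3 and 7668, 7179.5 and 8399.7 at day 5. NUP98-NSD1 libraries held 2755, 2253, 2401 and 2474, 2373, 2800.4 and 2516 and 6036, 2951 and 3121. Every day 5 library was above every untreated library of its model, and the 3 controls ran from 702 to 7153. The day 5 differences were 0.47 ± 0.42, 1.02 ± 0.42 and 0.63 ± 0.42 in NUP98-DDX10, NUP98-JARID1A and NUP98-NSD1, and none passed (limma adjusted p = 0.491, 0.0516 and 0.303). In the fit without the controls the standard error was 0.16 and all 3 passed (adjusted p = 0.0336, 9.66e-06 and 0.00324), as did Ccr1 at day 3 in NUP98-JARID1A (0.64, adjusted p = 0.00478 against 0.345 with the controls). By group mean Ccr1 was lowest in untreated NUP98-NSD1 at 2471 ± 211 (SD, n = 4), followed by NUP98-NSD1 day 3, untreated NUP98-JARID1A, NUP98-NSD1 day 5, untreated NUP98-DDX10, NUP98-DDX10 day 3, the controls, NUP98-DDX10 day 5 and NUP98-JARID1A day 3, and highest in NUP98-JARID1A day 5 at 7749 ± 614 (SD, n = 3). Neighbours in that Ccr1 order overlapped in range, except that untreated NUP98-JARID1A and NUP98-JARID1A day 5 lay clear above the group before them.

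Ccr2, the receptor by which inflammatory monocytes leave the marrow, rose in 2 models and not in the third. It was at 6229, 5858, 7209.5 and 6419 normalized counts in untreated NUP98-DDX10 libraries, 5433, 6769 and 6317 at day 3 and 4413, 4329.5 and 5045 at day 5. NUP98-JARID1A libraries held 2546, 3595, 2136 and 2789 untreated, 2466, 3107 and 2947 at day 3 and 8128, 6184 and 5123 at day 5. NUP98-NSD1 libraries held 4201, 4268, 5191 and 5170.1, 7594, 6880.3 and 5474 and 9525, 13957 and 13535. The day 5 libraries were all above the untreated ones in NUP98-JARID1A and NUP98-NSD1 and all below them in NUP98-DDX10. Ccr2 rose at day 5 by 1.23 ± 0.19 in NUP98-JARID1A (limma adjusted p = 7.57e-06) and by 1.38 ± 0.19 in NUP98-NSD1 (2.79e-06), and was at -0.48 ± 0.19 in NUP98-DDX10 (0.0835, or 0.0372 without the controls). The 3 day 5 effects differed (F-test, adjusted p = 1.12e-05). Day 5 was also above day 3, by 1.17 ± 0.20 in NUP98-JARID1A (adjusted p = 0.000171) and by 0.88 ± 0.20 in NUP98-NSD1 (0.00515). Without the controls the NUP98-NSD1 difference of 0.49 at day 3 also passed (adjusted p = 0.0443 against 0.104). By group mean Ccr2 was lowest in untreated NUP98-JARID1A at 2766 ± 615 (SD, n = 4), followed by NUP98-JARID1A day 3, NUP98-DDX10 day 5, untreated NUP98-NSD1, NUP98-DDX10 day 3, untreated NUP98-DDX10, NUP98-JARID1A day 5, NUP98-NSD1 day 3 and the controls, and highest in NUP98-NSD1 day 5 at 12339 ± 2446 (SD, n = 3). Neighbours in that Ccr2 order overlapped in range, except that NUP98-DDX10 day 5, NUP98-DDX10 day 3 and NUP98-NSD1 day 5 lay clear above the group before them.

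Cx3cr1, the fractalkine receptor, split the models the same way. It was at 4762, 3206, 3648 and 3842 normalized counts in untreated NUP98-DDX10 libraries, 3693, 4439 and 3060.1 at day 3 and 2663, 2805 and 2447 at day 5. NUP98-JARID1A libraries held 693, 2120.3, 1339.8 and 1948 untreated, 3175, 3027 and 2823 at day 3 and 7966, 7846 and 8405 at day 5. NUP98-NSD1 libraries held 2864, 5115, 3942 and 3836, 4767, 5359 and 4373 and 7037, 14646 and 10104. The NUP98-JARID1A libraries, lowest of the 3 models when untreated, were at day 5 among the highest of the series. Cx3cr1 rose in NUP98-JARID1A by 1.10 ± 0.26 at day 3 (limma adjusted p = 0.00379) and by 2.53 ± 0.26 at day 5 (1.17e-08), and in NUP98-NSD1 by 1.39 ± 0.26 at day 5 (0.000185). In NUP98-DDX10 it was at -0.54 ± 0.26 at day 5 (adjusted p = 0.168), with all 3 day 5 libraries below all 4 untreated ones. The day 5 effects differed between fusions (F-test, adjusted p = 3.01e-06). From day 3 to day 5 Cx3cr1 rose by 1.43 ± 0.28 in NUP98-JARID1A (adjusted p = 0.000591) and by 1.07 ± 0.28 in NUP98-NSD1 (0.0122), the latter call lost without day 3 replicate 3 or day 5 replicate 2. By group mean Cx3cr1 was lowest in untreated NUP98-JARID1A at 1525 ± 648 (SD, n = 4), followed by the controls, NUP98-DDX10 day 5, NUP98-JARID1A day 3, NUP98-DDX10 day 3, untreated NUP98-DDX10, untreated NUP98-NSD1, NUP98-NSD1 day 3 and NUP98-JARID1A day 5, and highest in NUP98-NSD1 day 5 at 10596 ± 3828 (SD, n = 3). Neighbours in that Cx3cr1 order overlapped in range, except that NUP98-JARID1A day 3 and NUP98-JARID1A day 5 lay clear above the group before them.

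Set side by side, the day 5 effect of doxycycline differed between fusions for 3 of the 9 receptors, C3ar1, Ccr2 and Cx3cr1, where 26.0% of all features differed. At day 3 limma's F-test called 0 receptors (2 at an unadjusted p below 0.05, 0 by edgeR and 0 by DESeq2), where 7.08% of features differed. Without the controls it called Fpr1 at day 3 (adjusted p = 0.0335), where 14.7% of features differed. At day 5 that fit also called Fpr2 (F-test, adjusted p = 0.0494), where 37.4% of features differed. The untreated levels differed between fusions for 7 of 9, all but C3ar1 (adjusted p = 0.416) and Ccr1 (0.166), where 69.8% of features differed. Ccr1 did differ in the fit without the controls (adjusted p = 0.000145), where 76.3% of features differed. The untreated NUP98-JARID1A cells were the highest of the 3 models in Fpr1, Fpr2, C5ar1 and Cxcr2 and the lowest in Cxcr4, Ccr2 and Cx3cr1. In each of those 7 receptors the untreated NUP98-JARID1A libraries did not overlap those of either other fusion. How many of all features separate in this way was not counted, so it is not read as particular to the receptors.

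Against the controls, untreated NUP98-DDX10 and NUP98-NSD1 cells were low in Fpr1, Fpr2, C5ar1 and Cxcr2, receptors of mature neutrophils. Untreated NUP98-JARID1A cells were low in Fpr2, while their Fpr1, C5ar1 and Cxcr2 ranges overlapped those of the controls. Every untreated NUP98-JARID1A library lay above control replicate 3 in Fpr1, C5ar1 and Cxcr2. The C5ar1 ranges of the other models overlapped the controls too. The controls held 6468, 6834 and 161 normalized counts of Fpr1 in replicates 1, 2 and 3, 12885, 15094 and 876 of Fpr2, and 18792, 20571 and 534 of Cxcr2. For C5ar1 they held 7825, 8666 and 480.3, for C3ar1 193, 238 and 139 and for Ccr1 6464, 7153 and 702. Cxcr4 was at 12627, 15457 and 7211, Ccr2 at 9101, 7184 and 4734 and Cx3cr1 at 2718, 1966 and 2141. Replicate 3 was the lowest control for every receptor but Cx3cr1. Untreated NUP98-DDX10 differed from the controls in 7 of 9 receptors (68.5% of features changed), NUP98-JARID1A in 5 (69.4%) and NUP98-NSD1 in 7 (64.6%). Without control replicate 3 the counts were 7, 9 and 8. Fpr2 was lower in all 3 models, with log2 fold changes of -5.53 ± 0.58, -2.92 ± 0.58 and -5.74 ± 0.58 in NUP98-DDX10, NUP98-JARID1A and NUP98-NSD1. C3ar1 was lower too (-2.56, -2.16 and -2.06, each ± 0.40). Fpr1, C5ar1 and Cxcr2 were lower in NUP98-DDX10 (log2 fold changes -4.89, -2.96 and -3.73) and in NUP98-NSD1 (-5.68, -3.29 and -4.40), and in NUP98-JARID1A they did not pass by limma with all 3 controls but did without replicate 3, and by DESeq2 with all 3 (adjusted p = 0.000103, 0.00032 and 0.00125). Cx3cr1 was higher than in the controls in NUP98-DDX10 (0.76) and NUP98-NSD1 (0.78) and lower in NUP98-JARID1A (-0.69). Without control replicate 2 the first pair of Cx3cr1 calls was lost (adjusted p = 0.0514 and 0.0505), and without control replicate 1 or the untreated library titled day 3 the last. Cxcr4 was higher in NUP98-DDX10 (0.55, or 0.23 and not called without control replicate 3) and lower in NUP98-JARID1A (-0.56, a call lost without control replicate 2). Ccr2 was lower in NUP98-NSD1 (-0.53) and NUP98-JARID1A (-1.32), the former call lost without control replicate 1 or 2. For Ccr1 the result turned on single controls: its differences of 0.38, 0.25 and -0.37 did not pass with all 3 and were -0.71, -0.84 and -1.46, all called, without replicate 3. Without replicate 2 the Ccr1 difference in NUP98-DDX10 was 0.97 and called, and in NUP98-NSD1 it was 0.14 without replicate 1 and 0.21 without replicate 2, neither called. Over all features the medians of these comparisons were -0.11, -0.11 and -0.06. By day 5, every NUP98-JARID1A library exceeded every control in C3ar1, Ccr1 and Cx3cr1, and every NUP98-NSD1 library did so in C3ar1, Ccr2 and Cx3cr1, as a description with no test. The share of all features that did so was not counted.

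**Figure D3:**
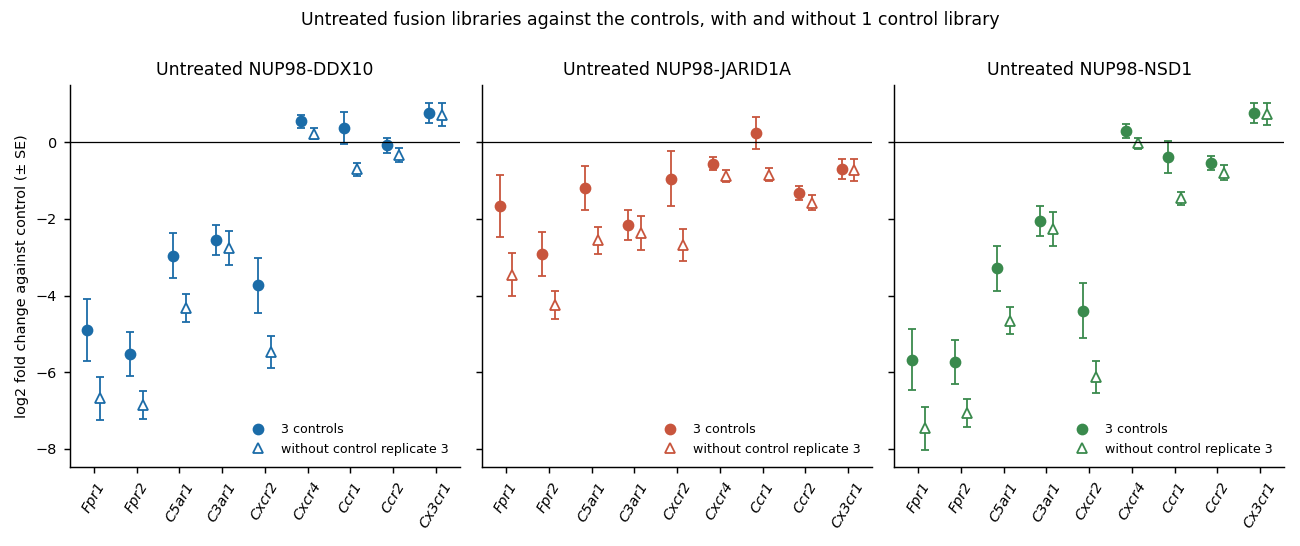
Log2 fold change of each receptor in the untreated fusion groups against the controls, with all 3 controls and without control replicate 3, with bars of 1 standard error. Ccr1 in NUP98-DDX10 is at 0.38 with that library and at -0.71 without it.

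The receptors fell into patterns that can be described by their correlation over libraries on the log2(normalized count + 1) scale. The 33 libraries share groups, depth range and cell makeup, so no p is given. Fpr1 went with Cxcr2 (Pearson r = 0.953), C5ar1 (0.945) and Fpr2 (0.889), and over the 30 fusion libraries alone these were 0.937, 0.934 and 0.850. Ccr2 went with Cx3cr1 (0.724 over 33 and 0.814 over 30 libraries) and hardly with Fpr1 (-0.03 and -0.19). Cxcr4 ran opposite to Fpr1 (-0.57 over 33 and -0.81 over 30). Among all features kept, those most like Fpr1 over the 33 libraries were Lcn2, the iron-binding lipocalin of neutrophil granules (r = 0.977), Itgb2l (0.968) and Septin5 (0.966). Those most like Cxcr2 were 9830107B12Rik (0.976), Cebpe, a factor of granule maturation (0.967), and Ano10 (0.966). For Fpr2 they were Scrg1 (0.963), Glipr2 (0.948) and Ifitm6 (0.943), and for C5ar1 Adam8 (0.974), B430306N03Rik (0.970) and Svil (0.968). C3ar1 was most like Clec4a1 (0.950), Cmklr1, the chemerin receptor (0.942), and Slc11a1, a phagosome metal transporter (0.936). Cx3cr1 was most like Psap, the saposin precursor (0.939), Tmem51 (0.918) and Cdc42bpb (0.918), and Ccr2 most like Cdc42 (0.902), Prkx (0.877) and Chmp2b (0.856). Ccr1 was most like Slc31a2 (0.924), Gyg (0.912) and Alox5ap, which serves leukotriene synthesis (0.9). Cxcr4 had the weakest likeness, with Tube1 (0.864), Ccdc40 (0.859) and 1700012B09Rik (0.855).

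**Figure D4:**
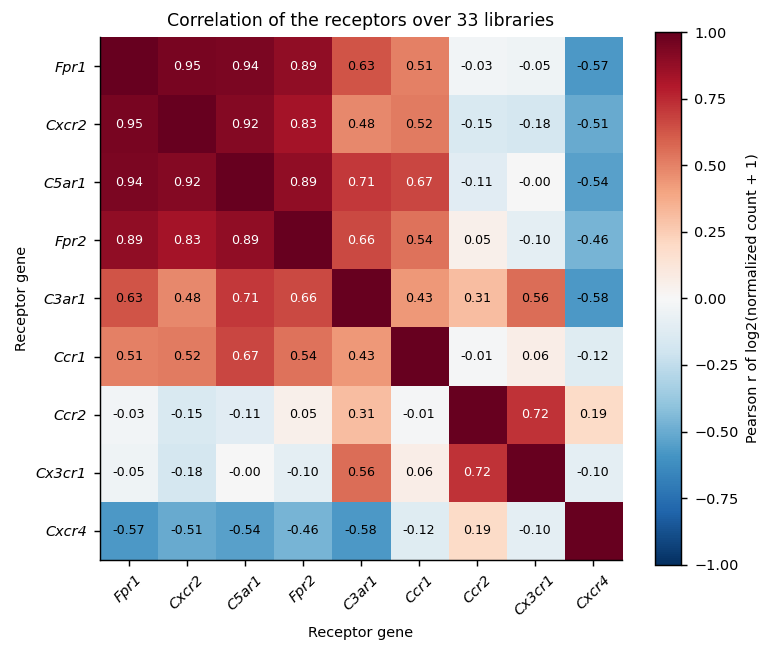
Pearson correlation of log2(normalized count + 1) between the 9 receptors over the 33 libraries. Fpr1, Fpr2, C5ar1 and Cxcr2 form 1 block with values from 0.83 to 0.95, Ccr2 and Cx3cr1 pair at 0.72, and Cxcr4 is below 0 with all others but Ccr2.

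Other genes of the chemoattractant pathway were counted from lists, beside the 15.1%, 41.3% and 25.4% of all features that changed at day 5 in NUP98-DDX10, NUP98-JARID1A and NUP98-NSD1. The share called was below that background for the other receptors in NUP98-JARID1A and for the ligand, effector and desensitization genes in NUP98-DDX10, and no list is read as set apart from it. Of 17 other chemoattractant receptors tested, 3 rose and 1 fell at day 5 in NUP98-DDX10, 4 rose and 2 fell in NUP98-JARID1A, and 5 rose and 1 fell in NUP98-NSD1, with medians of 0.49, 0.50 and 0.89. Cmklr1 rose in all 3 (2.70, 5.11 and 2.97), from 44.5 ± 26.3 (SD, n = 4) to 1288 ± 586 (SD, n = 3) normalized counts in NUP98-JARID1A. Ccr7, which guides cells to lymph nodes, fell in all 3 (-3.32, -3.31 and -2.42), and Ackr3, a scavenger of CXCL12, fell in NUP98-JARID1A (-3.78). C5ar2, the second C5a receptor, named after its values were seen, rose in all 3 (1.77, 1.53 and 1.51). Cxcr3, a receptor of interferon-induced chemokines, rose in NUP98-NSD1 by 3.57, from 10.03 ± 4.07 (SD, n = 4) to 125 ± 15.5 (SD, n = 3) normalized counts. Its differences in NUP98-DDX10 (0.55) and NUP98-JARID1A (0.50) did not pass, and the effects differed between fusions (F-test, adjusted p = 1.82e-06). Ccrl2, an atypical chemerin receptor, rose in NUP98-DDX10 (0.88) and NUP98-NSD1 (1.5).

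Of 18 chemoattractant ligand genes tested, 2 rose in NUP98-DDX10, 7 rose and 2 fell in NUP98-JARID1A, and 4 rose and 5 fell in NUP98-NSD1, with medians of 0.05, 0.67 and -0.17. Saa3, a serum amyloid A of a family that FPR2 binds, rose in NUP98-DDX10 by 4.43, from 19.4 ± 15.6 (SD, n = 4) to 411 ± 208 (SD, n = 3) normalized counts. It fell in NUP98-JARID1A (-1.12) and in NUP98-NSD1 (-2.95), and the effects differed (F-test, adjusted p = 3.17e-09). Fpr2 itself rose in all 3 models. Ccl2, the main CCR2 ligand, rose in NUP98-JARID1A (4.40) and NUP98-NSD1 (2.41) and was at 0.67 in NUP98-DDX10 without passing (F-test, adjusted p = 0.000247). Ccl6, a CCR1 ligand, rose in all 3 (1.34, 3.01 and 2.44), and Ccl7 rose in NUP98-JARID1A (3.07). The fractalkine gene Cx3cl1 and the CXCR4 ligand gene Cxcl12, named after their values were seen, fell in NUP98-NSD1 (-1.83 and -2.60).

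Downstream, 29 G protein and effector genes were tested. In NUP98-DDX10 3 rose and 1 fell, in NUP98-JARID1A 15 rose and in NUP98-NSD1 13 rose, none falling in the latter pair, and the medians were 0.01, 0.42 and 0.27. The kinases Lyn (0.44, 1.22 and 0.63) and Fgr (1.31, 2.04 and 3.02), which act behind these receptors and integrins, rose in all 3 models. Prkcd (1.10) and Pik3r5, a subunit of the phosphoinositide kinase that G proteins switch on (1.57), rose in NUP98-JARID1A, and Gnb4 fell in NUP98-DDX10 (-1.72). Of 14 receptor desensitization genes tested, 1, 7 and 6 rose and none fell, with medians of 0.14, 0.55 and 0.66. Grk5, a kinase that marks active receptors for arrestin, rose in all 3 models (1.06, 2.34 and 1.60). Rgs10, which shortens G protein signals, rose in NUP98-JARID1A (1.28) and NUP98-NSD1 (0.63), Arrb1 in NUP98-JARID1A (0.97) and Grk6 in NUP98-NSD1 (0.69).

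**Figure D5:**
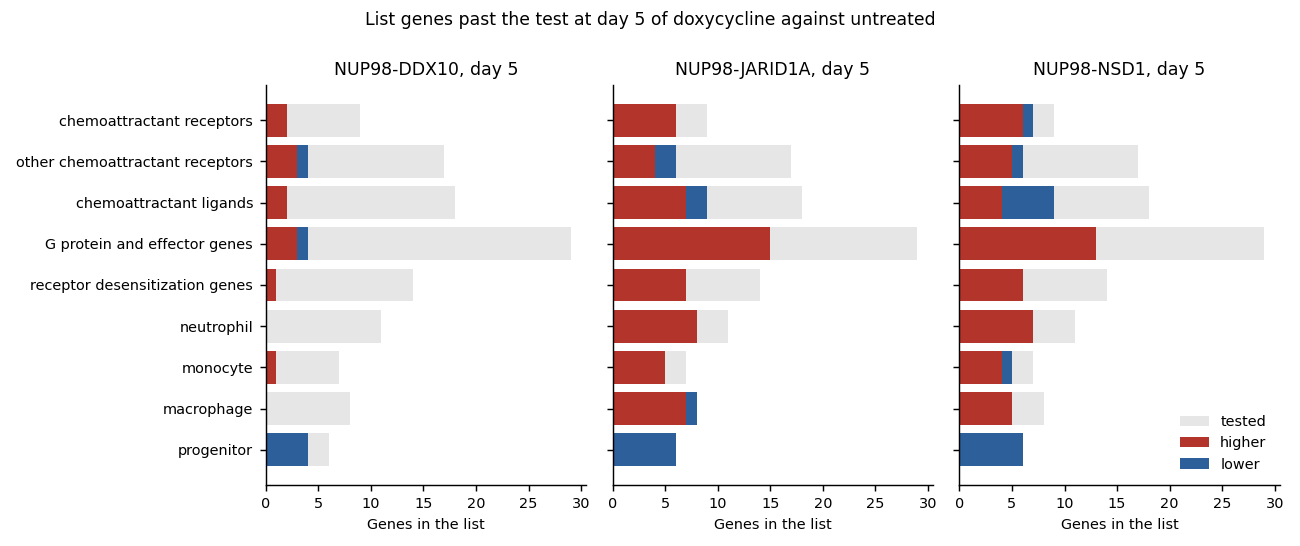
Number of genes tested, higher and lower at day 5 against untreated, 1 panel per fusion. Bars are for the 9 receptors, 4 pathway lists and the neutrophil, monocyte, macrophage and progenitor markers. Receptors called in either direction number 2, 6 and 7 in NUP98-DDX10, NUP98-JARID1A and NUP98-NSD1.

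Markers of several cell types also changed on doxycycline. Over all features, 15.1%, 41.3% and 25.4% changed at day 5 in NUP98-DDX10, NUP98-JARID1A and NUP98-NSD1. By F-test 26.0% of features differed between fusions in that effect. The 11 neutrophil markers summed to 205155 to 261799.7 normalized counts per library in untreated NUP98-JARID1A cells and 640048 to 1095664 at day 5, and 8 of 11 rose. In NUP98-NSD1 the sums went from 47499 to 97176 to 133954 to 295179, and 7 of 11 rose. In NUP98-DDX10 they were 53089 to 71775 and 59718 to 98030.1, and limma called 0 of 11 (0 at an unadjusted p below 0.05, 0 by edgeR and 0 by DESeq2). Of 8 macrophage markers, 7 rose and 1 fell in NUP98-JARID1A, with sums of 9160.4 to 9800.2 untreated and 20791 to 28170.1 at day 5. In NUP98-NSD1 5 rose (sums 9259 to 10609 and 15878 to 20817), whereas in NUP98-DDX10 none was called by limma (1 at an unadjusted p below 0.05, 0 by edgeR and 0 by DESeq2; sums 9410.3 to 11972 and 10028 to 10443). Of 7 monocyte markers 1, 5 and 4 rose in NUP98-DDX10, NUP98-JARID1A and NUP98-NSD1, and Ly6c2 fell in NUP98-NSD1 (-1.0). Of 6 progenitor markers (Kit, Cd34, Sox4, Meis1, Hoxa9 and Gata2) 4, 6 and 6 fell. The monocyte sums were 91607 to 110509, 46951 to 59968 and 89539.9 to 104263 untreated and 95223 to 99176, 90259 to 100489.6 and 92132 to 109349.9 at day 5, and the progenitor sums fell from at least 7261 untreated to at most 5125 at day 5. The dendritic cell list held Siglech, Cd209a, Xcr1, Clec9a and Flt3, and which cells expressed them was not tested. Of 5 dendritic cell markers, 3 fell in NUP98-DDX10 (sums 2455 to 3650.4 untreated and 2313 to 2651 at day 5), 2 fell in NUP98-JARID1A (1875 to 3392 and 471 to 525) and 1 rose in NUP98-NSD1 (887 to 1192 and 1280.0 to 2256), and 4 differed between fusions by F-test. Of 3 general leukocyte markers 1, 3 and 3 rose. The part of these cell makeups in the receptor changes was not tested. B cell markers summed to at most 275.0 and erythroid markers to at most 60.9 in any fusion library. Of the T and NK cell markers, Cd3e and Ncr1 were at 0 in all NUP98-JARID1A libraries, while Klrb1c was at 656.1 to 938.5 untreated and fell by 6.53 at day 5.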

How the data were processed

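RNA from sorted GFP/CD45.2+ bone marrow cells was sequenced from Lexogen poly-A stranded libraries, per the labels' protocols. FastQC, STAR, SAMtools, featureCounts and DESeq2 and the builds GRCm38 and mm10 are named without versions, per the submitters' processing notes. Whether counting used strand, and whether the kit reads only the 3′ end, is not given in the sources used here, so levels are not compared between genes. The values deposited by the authors are a signal, namely read counts scaled by a size factor for each library (normalized counts). In all 33 libraries 100% of values were whole multiples of 1 step (tolerance 0.01 reads, largest deviation 3.84e-09). Library totals of these recovered reads set the precision.

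Features with at least 10 normalized counts in at least 3 libraries (12687) entered 1 limma 3.58.1 fit (R 4.3.3) of log2(value + 1). The fit used 10 group means, a mean-variance trend and 27.3 degrees of freedom. It was checked on simulated counts in which all groups shared 1 spread per gene. That check does not cover the wider spread of the real controls. Adjusted p-values (Benjamini-Hochberg, threshold 0.05) run over all features. On the recovered reads, edgeR 4.0.16 called 1881, 5232 and 3307 features at day 5 in NUP98-DDX10, NUP98-JARID1A and NUP98-NSD1, and limma 1919, 5238 and 3225. DESeq2 1.42.0, a pseudocount of 5, no filter, quantile normalization, only the groups compared, a replicate block and each library left out were the other alternatives (deviations of every same-numbered pair correlated above 0.1, at 0.141 to 0.425, only for NUP98-JARID1A day 5 with untreated), and a fit without the controls was added after seeing the data.

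The receptors and gene lists were chosen with earlier results of these data known. All 9 receptors were described, with the 3 genes of highest Pearson correlation to each and up to 3 genes per list with the smallest adjusted p at day 5 in each fusion. Some list genes that the rule selects are not reported here. Sequences and positions are from RefSeq on GRCm38.p6, which gave a start window for all 9, and exon counts from the GENCODE annotation of the same build.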

Additional observations from a re-analysis of the deposited data

Results flagged for a closer look

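C3ar1, Ccr2 and Cx3cr1 were flagged because their response to 5 days of doxycycline differed between the fusions, by limma's F-test over the 3 day 5 effects with Benjamini-Hochberg adjustment. By that test 26.0% of all features differed, so the count is not read as particular to the receptors. Without the controls Fpr2 also passed the F-test (adjusted p = 0.0494), where 37.4% of features differed. For C3ar1 the adjusted p was 0.000794, with a rise in every model and the largest in NUP98-JARID1A. For Ccr2 it was 1.12e-05 and for Cx3cr1 3.01e-06, with rises in NUP98-JARID1A and NUP98-NSD1 while all 3 day 5 libraries of NUP98-DDX10 were below all 4 untreated ones. No library stood out by Dixon's test in the 27 sets of 4 untreated values, and groups of 3 were not tested.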

How the results depend on the processing

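Of the values of single receptors recomputed under all alternatives, 2119 kept their direction and side of the threshold, 70 newly passed, 45 no longer passed and 34 changed sign, and the cause was not tested. Without the 3 controls the number of receptors called was 1 for NUP98-DDX10 at day 3, 5 at day 5 and 4 between the days. It was 4 for NUP98-JARID1A at day 3 and 7 between the days, 3 for NUP98-NSD1 at day 3 and 7 between the days, and 1 in the F-test of day 3. Shares of all features in that fit are given above. With only the groups compared the number of receptors was 7 for NUP98-DDX10 at day 5 and 1 between the days, 3 for untreated NUP98-JARID1A against the controls, 2 for NUP98-NSD1 at day 3 and 2 between the days, and 2 in the F-test of day 3. In that setting the features called, in the same order, were 3520, 233, 6732, 3520, 1918 and 2585 of 12687. With all groups in the fit they were 1919, 118, 8806, 1159, 1346 and 898, so the receptor counts are not read as particular to the receptors. Between the days in NUP98-DDX10, edgeR, DESeq2 and a pseudocount of 5 each called 1 receptor, with 128, 290 and 140 features called. At day 3 in NUP98-NSD1 edgeR called 1 (1213 features) and DESeq2 2 (1581 features), and DESeq2 called 8 (8845 features) for untreated NUP98-JARID1A against the controls. Leaving out 1 library at a time gave 4 to 9 for that comparison, 2 to 4 for NUP98-NSD1 between the days and 0 to 1 for the F-test of day 3. At day 5 it gave 5 for NUP98-JARID1A and 5 to 6 for NUP98-NSD1. It also gave 3 to 4 for NUP98-JARID1A between the days and 6 to 8 for untreated NUP98-NSD1 against the controls.

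Signs changed for the following log2 fold changes, among which Ccr1 against the controls was called in NUP98-DDX10 and NUP98-JARID1A after its sign had changed without control replicate 3. In NUP98-DDX10 at day 3, fits without 1 library ran from -0.21 to 0.26 for C5ar1 (0.0020 by edgeR), -0.24 to 0.033 for Cxcr2, -0.029 to 0.20 for Ccr1, -0.13 to 0.029 for Ccr2 and -0.19 to 0.082 for Cx3cr1. At day 5 they ran from -0.0032 to 0.24 for Cxcr2. In NUP98-JARID1A at day 3 they ran from -0.032 to 0.48 for Fpr1, -0.064 to 0.17 for Cxcr2 (-0.0075 with quantile normalization) and -0.059 to 0.19 for Ccr2. In NUP98-NSD1 they ran at day 3 from -0.072 to 0.22 for Cxcr4 and -0.012 to 0.11 for Ccr1, and between the days from -0.063 to 1.0 for Cxcr2. Against the controls Ccr1 ran from -0.71 to 0.97 in NUP98-DDX10 (-0.10 by edgeR, -0.18 by DESeq2), from -0.84 to 0.83 in NUP98-JARID1A (-0.27 by edgeR, -0.33 by DESeq2) and from -1.46 to 0.21 in NUP98-NSD1. Ccr2 ran from -0.34 to 0.14 in NUP98-DDX10 (0.057 with quantile normalization) and Cxcr4 from -0.021 to 0.53 in NUP98-NSD1.

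Replicate numbers are shared between groups, and same-numbered deviations correlated at -0.384 to 0.425 over 33 pairs (median -0.0231). The 6 pairs over 0.1 all joined a day 5 doxycycline library with an untreated one, so pairing by number cannot be dismissed there. The 4 pairs of NUP98-JARID1A day 5 with untreated were all over 0.1. In NUP98-NSD1 the pairs titled day 5 were at 0.135, 0.00962 and 0.247 for numbers 1, 2 and 3. With the number as a replicate block, 5 receptors were called for NUP98-JARID1A at day 5 (Fpr1 lost, adjusted p = 0.1), 6 for NUP98-NSD1 at day 5 (C5ar1 lost, 0.0792), 6 for untreated NUP98-NSD1 against the controls (Cx3cr1 lost, 0.0636) and 6 in the F-test of untreated levels (C5ar1 lost, 0.0723). Features called with the block in these comparisons, in the same order, were 4726, 2771, 7547 and 6846, against 5238, 3225, 8200 and 8851 without it. Cxcr2 in NUP98-JARID1A at day 3 was -0.030 with the block.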
